A study of Mus musculus with 8 samples.

Results

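Polyamine synthesis and breakdown was followed through 10 genes in mouse kidney RNA: Odc1, Oaz1, Oaz2, Azin1, Amd1, Srm, Sms, Sat1, Paox and Smox. They were taken by gene symbol from the 35275 genes of the deposited table, and each symbol matched 1 gene. The genes were chosen by a rule that used the measured FPKM values of KO against WT mice, and that choice was made with results of the same comparison known. The KO and WT values of the 10 genes are therefore given as a description, with no test of their own. All 10 had a mean of at least 1 FPKM over the 8 libraries, the level above which a gene entered the fit of all genes.

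Each library came from the whole left kidney of a different male mouse on a C57BL/6J background. The mice were 40 weeks old and had eaten a high-fat diet, with fat giving 60% of the kcal, since they were 6 weeks old. The KO group was 4 Ctrp1-/- mice, homozygous for the allele C1qtnf1tm1Lex, and the WT group was 4 littermates without that allele. The allele lacks 679 bp of the gene of the secreted protein CTRP1, namely the coding part of exon 4 with 162 bp of the 3' UTR that follows it. It came from 129S5/Sv embryonic stem cells, was backcrossed to C57BL/6J over more than 6 generations, and is present in every cell of the animal. Both groups ate the same diet, so nothing here compares diets. FPKM is the number of sequenced fragments of a gene divided by its length and by the size of the library, and levels of different genes are compared on this scale only.

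Polyamines (putrescine, spermidine and spermine) are small positively charged molecules that bind nucleic acids and are needed for growth and for the making of the translation factor eIF5A. Ornithine decarboxylase makes putrescine from ornithine. Spermidine synthase and spermine synthase then add aminopropyl groups that S-adenosylmethionine decarboxylase provides. Antizymes bind ornithine decarboxylase, send it to the proteasome and lower polyamine uptake, while antizyme inhibitor takes antizyme away from the enzyme. Breakdown runs through an acetyltransferase and an oxidase that acts on acetylated polyamines, or through spermine oxidase. Male mouse kidney is known for a high ornithine decarboxylase level under the control of androgens.

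The antizyme genes hold an element of this pathway that senses polyamines in the RNA itself. A complete antizyme is read only when the ribosome shifts its reading frame at the stop codon of the first frame, and polyamines favour that shift. The site is shown for both antizyme genes because their messages are among the 4 most abundant of the 10. Each line gives 30 bases, 5′ to 3′, with the last codon of the first frame and its stop codon in capitals.
Oaz1: ctcggtggtgcTCCTGAtgtccctcaccca
Oaz2: ctctgtggtgcTCCTGAtgcccctcaccca
The Oaz1 site lies at chr10:80828281-80828310 and the Oaz2 site at chr9:65686258-65686287, both on the plus strand of mm10 (GRCm38), in coding exons of the GENCODE M21 annotation. The annotated coding sequence leaves out 1 base in each, the T of the capital TGA, at 80828295 in 3 Oaz1 transcripts and at 65686272 in 2 Oaz2 transcripts. In the transcripts read here, 68 whole codons came before that base in Oaz1 and 32 in Oaz2. The windows were identical at 28 of 30 positions. The differences were G4T and T20C, counted from 1 at the 5′ end with the base of Oaz1 first. Values per gene cover the whole message and do not show how often the shift took place.

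Library totals worked out from the FPKM steps were 17884140 to 20344859 reads. C1qtnf1, the targeted gene, had 247 to 286 reads in the WT mice and 15 to 40 in the KO mice, so each library matched its label. Its level averaged 5.42 ± 0.141 FPKM over WT and 0.610 ± 0.230 over KO mice (SD, n = 4 each). KO replicate 2 stood apart from the other libraries. Its summed endothelial markers (5 of 5 above 0 in every library) were at 42.8 FPKM, against 77.6 to 83.2 in the other 7 mice. Its thick ascending limb markers (4 of 4) were at 960 FPKM against 1244 to 1516. Defining markers of kidney were present throughout: the 7 markers of proximal tubule segments S1 and S2 were above 0 in every library and summed to 4394 to 5200 FPKM in WT and 3993 to 4934 in KO. Whole kidney mixes many cell types, and fewer cells of a type cannot be told apart from less RNA per cell.

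In WT kidney, the polyamine genes covered a wide range of levels, with ornithine decarboxylase and its antizyme at the top. Odc1, the decarboxylase, was at 282 ± 10.3 FPKM and Oaz1, the most abundant antizyme, at 211 ± 9.72 FPKM (SD, n = 4 each, as for all levels below). Sat1, the acetyltransferase that begins breakdown, was at 96.4 ± 10.4 FPKM and the second antizyme, Oaz2, at 84.8 ± 2.18 FPKM. Among the 12118 genes tested, these 4 levels lay at percentiles 98.3, 97.6, 94.1 and 93.2. The remaining enzymes and the inhibitor were lower, between 5.05 and 20.6 FPKM. Azin1, the antizyme inhibitor, was at 20.6 ± 2.59 FPKM and Srm, spermidine synthase, at 20.3 ± 1.41 FPKM. Amd1, S-adenosylmethionine decarboxylase, was at 11.7 ± 1.43 FPKM and Sms, spermine synthase, at 11.5 ± 1.84 FPKM. The oxidases were lowest, with Paox, which acts on acetylated polyamines, at 5.99 ± 0.842 FPKM and Smox, which acts on spermine, at 5.05 ± 0.187 FPKM.

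**Figure D1:**
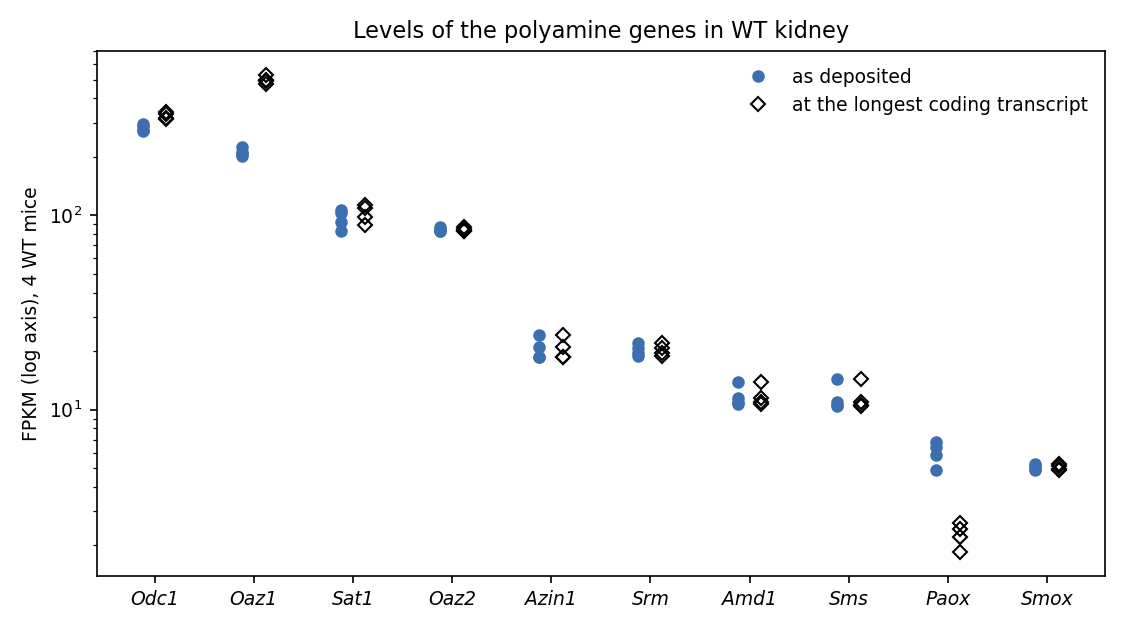
Level of each gene in the 4 WT mice, in FPKM on a log axis, as deposited (blue circles) and recomputed at the length of its longest coding transcript (open diamonds). As deposited, Odc1 lies highest at 272 to 294 FPKM; at the coding transcript length Oaz1 lies highest at 476 to 531 FPKM and Paox falls to 1.86 to 2.59 FPKM.

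Of the 9 pairs of neighbours in this order, 4 had WT ranges that overlapped. Sat1 exceeded Oaz2 in 7 of 8 mice, Amd1 exceeded Sms in 6 and Paox exceeded Smox in 6. Azin1 exceeded Srm in 4 of 8, so that pair had no order. The other 5 neighbours kept their order in all 8 mice.

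The top of the order depended on the gene length used. The length that fitted the deposited values of Oaz1 was 2526 bases, the longest annotated transcript of the gene, while its longest coding transcript has 1071. At the latter length Oaz1 would be at 499 ± 22.9 FPKM and Odc1 at 325 ± 11.9 FPKM. Oaz1 was then above Odc1 in all 8 mice, with ratios of 1.03 to 1.60. Paox had a fitted length of 1765 bases against 4655 for its longest coding transcript, at which it would be at 2.27 ± 0.319 FPKM. The other 7 genes moved by a factor of 1.06 or less. A ratio between groups for 1 gene is not touched by its length.

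The polyamine genes differed in how much they varied among the WT mice, a measure that uses no KO library. The coefficient of variation (CV, the SD as a percent of the mean) was 2.57% for Oaz2, 3.67% for Odc1, 3.70% for Smox and 4.59% for Oaz1. The lower quartile of this CV over all genes tested was 5.76% and the median 8.89%, so all 4 genes lay below the lower quartile. Highly expressed genes vary less, and among the 418 genes within 2-fold of the level of Odc1 its CV was at percentile 20.8. For Oaz1 that percentile was 32.9, for Oaz2 9.3 and for Smox 5.9. The counting error of Smox alone was 6.63% in WT, more than its spread, so no difference between WT mice was detectable in Smox at this depth. With FPKM divided by the scaling factors, the CV became 2.17% for Oaz1 and 5.05% for Oaz2. The CV of Oaz1 was 2.16% without WT replicate 1, and that of Oaz2 1.66% without WT replicate 3.

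Sms, Paox, Azin1 and Amd1 varied more, with a CV of 15.9%, 14.1%, 12.5% and 12.2% among WT mice, and Sat1 followed at 10.8% and Srm at 6.95%. WT replicate 1 set most of this for 3 of them. Without that mouse the CV was 2.35% for Sms, 6.86% for Azin1 and 3.97% for Amd1. For Paox it was 8.12% without WT replicate 2, beside a counting error of 6.94%. WT replicate 1 had the highest value of all 8 mice in Azin1, Amd1 and Sms after scaling, and the lowest in Srm and Odc1. In Odc1 it barely differed from WT replicates 2 and 4, with scaled values of 273, 273 and 274 FPKM.

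Odc1, the first enzyme of synthesis, was the gene of the 10 with the largest difference between the groups. It was at 287, 275, 294 and 272 FPKM in WT replicates 1 to 4 and at 437, 321, 329 and 328 FPKM in KO replicates 1 to 4. All 4 KO values lay above all 4 WT values, and KO replicate 1 lay far above the other 3 KO mice. The KO mean was 354 ± 55.5 FPKM, 1.25 times the WT mean, and the log2 difference was 0.34 ± 0.11 (SE, limma). Without KO replicate 1 it was 0.24 ± 0.10, and without KO replicate 2 it was 0.35 ± 0.10. Each library held 12957 to 19894 reads of Odc1, a counting error of at most 0.88%. Odc1 lies at chr12:17544794-17551505 on the plus strand. The annotation has 7 sequences that match its transcripts at 95% identity or more over at least 300 bases, of which the highest in the table was at 0.725 FPKM.

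**Figure D2:**
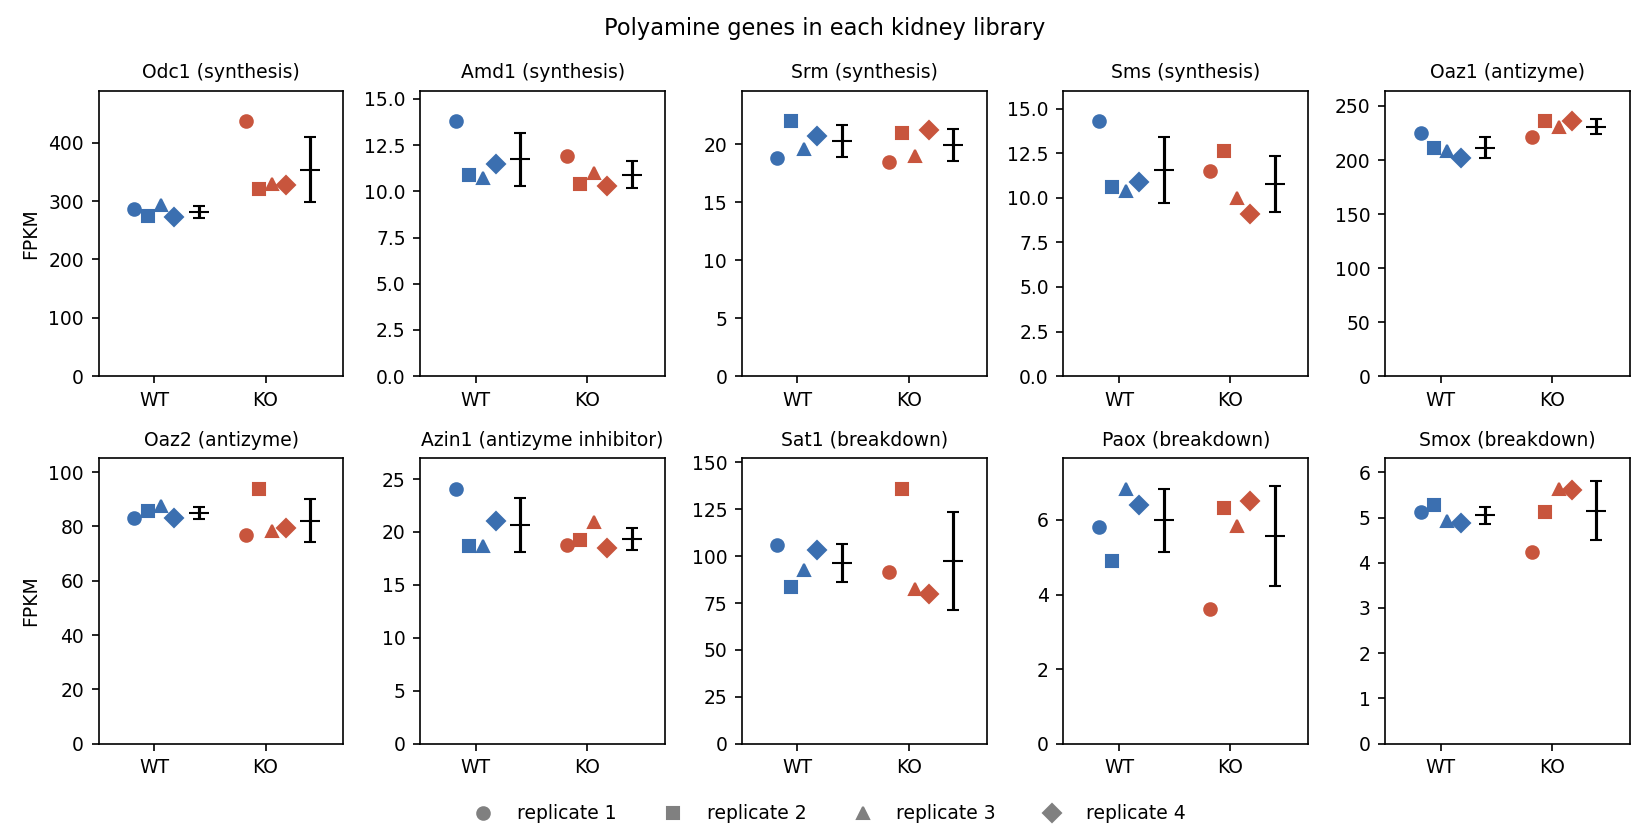
FPKM of the 10 polyamine genes in each mouse (blue, WT; red, KO; symbols, replicate numbers, which do not pair mice), with mean ± SD in black, n = 4 per group, axes from 0. For Odc1 the 4 KO mice, at 321 to 437 FPKM, lie above the WT mice at 272 to 294 FPKM; in the other 9 genes the groups overlap.

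Amd1, Srm and Sms, the enzymes that follow, overlapped between the groups. Amd1 was at 13.8, 10.9, 10.7 and 11.5 FPKM in WT and 11.9, 10.4, 11.0 and 10.3 FPKM in KO. The highest Amd1 value was that of WT replicate 1, and 2 KO values lay below all WT values. Srm was at 18.8, 22.0, 19.6 and 20.7 FPKM in WT and 18.5, 21.0, 19.0 and 21.2 FPKM in KO, with the mice of both groups interleaved. Sms was at 14.3, 10.6, 10.4 and 10.9 FPKM in WT and 11.5, 12.6, 10.00 and 9.08 FPKM in KO. WT replicate 1 again held the highest Sms value, and KO replicates 3 and 4 lay below every WT mouse. The log2 differences were -0.08 ± 0.09 for Amd1, -0.00 ± 0.10 for Srm and -0.06 ± 0.13 for Sms (SE, limma). For Sms it was -0.17 ± 0.10 without KO replicate 2, but 0.02 ± 0.13 without WT replicate 1 and 0.02 ± 0.13 without KO replicate 4, so its direction was not fixed. Without WT replicate 1, Amd1 was at -0.02 ± 0.08.

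These 3 genes lie at chr10:40287458-40302186 (Amd1, minus strand), chr4:148591503-148594993 (Srm, plus strand) and chrX:157443855-157492287 (Sms, minus strand). Amd2, a near copy of Amd1 that shares 3202 bases at 99.6% identity, averaged 0.102 FPKM over WT and 0.243 over KO mice. How reads that match both genes were shared out is not given in the sources used here, so the Amd1 level is uncertain to that extent. The copy Sms-ps was at 1.02 FPKM in WT.

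Oaz1, the main antizyme, was at 225, 211, 208 and 202 FPKM in WT and 221, 236, 231 and 236 FPKM in KO. As deposited the groups overlapped, because KO replicate 1 lay below WT replicate 1, and the other 3 KO mice lay above every WT mouse. After division by the scaling factors the WT mice were at 203 to 214 FPKM and the KO mice at 216 to 253 FPKM, with no overlap. Over all genes tested, 2.34% had scaled KO values all above the WT values. The log2 difference of Oaz1 was 0.15 ± 0.09 (SE, limma), and 0.11 ± 0.06 without KO replicate 2, its highest scaled value.

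Oaz2, the second antizyme, was at 83.1, 85.5, 87.6 and 83.1 FPKM in WT and 76.7, 93.9, 78.4 and 79.3 FPKM in KO. KO replicate 2 lay above every WT mouse and the other 3 KO mice below every WT mouse. Its log2 difference was -0.03 ± 0.11, and -0.13 ± 0.06 without KO replicate 2 (SE, limma). Azin1, whose product frees ornithine decarboxylase from antizyme, was at 24.1, 18.7, 18.7 and 21.0 FPKM in WT and 18.8, 19.2, 20.9 and 18.5 FPKM in KO. The groups overlapped, with WT replicate 1 the highest of the 8 mice and KO replicate 4 the lowest. The log2 difference of Azin1 was -0.06 ± 0.09 (SE, limma).

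Oaz1 lies at chr10:80826656-80829290 and Oaz2 at chr9:65668001-65690300, both on the plus strand, and Azin1 at chr15:38487427-38519266 on the minus strand. The processed copy Oaz1-ps on chromosome 17 matches 685 bases of Oaz1 at 99.3% identity. It was listed at 24.6 FPKM over WT mice (22.7 to 26.7) and 26.1 FPKM over KO mice (23.7 to 28.3), so some reads of the Oaz1 message may stand under it. Azin1 shares 358 exon bases with Gm49077 on the opposite strand, and whether reads were counted by strand is not given in the sources used here.

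Among the breakdown genes, Sat1 held the widest spread between KO mice. It was at 106, 83.6, 92.5 and 103 FPKM in WT and 91.5, 136, 82.3 and 79.6 FPKM in KO. KO replicate 2 was the highest of all mice and KO replicates 3 and 4 the lowest. The means were 96.4 ± 10.4 FPKM in WT and 97.3 ± 26.2 FPKM in KO, and the log2 difference was 0.01 ± 0.18 (SE, limma). It changed to -0.19 ± 0.09 without KO replicate 2, when the 3 KO values of 79.6 to 91.5 FPKM still overlapped with WT. Sat1 is known to be induced by polyamines and by stress. In KO replicate 2 the 10 immediate early and heat shock genes, listed as a sign of RNA handling, summed to 286 FPKM, the highest of the 8 libraries. The part of that state in the Sat1 value was not tested.

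Paox was at 5.81, 4.89, 6.84 and 6.41 FPKM in WT and 3.61, 6.31, 5.84 and 6.50 FPKM in KO. KO replicate 1 was the lowest mouse and the other 3 KO mice lay within the WT range. Its log2 difference was -0.09 ± 0.17, and 0.08 ± 0.12 without KO replicate 1 (SE, limma). Smox was at 5.13, 5.28, 4.93 and 4.87 FPKM in WT and 4.23, 5.13, 5.64 and 5.62 FPKM in KO. KO replicate 1 was again the lowest and KO replicates 3 and 4 lay above every WT mouse. The log2 difference of Smox was 0.04 ± 0.10, and 0.12 ± 0.09 without KO replicate 1 (SE, limma). With 114 to 232 reads for Paox and 174 to 258 for Smox, counting error was up to 9.37% and 7.58% of a value, so small differences in these oxidases were not detectable at this depth.

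Sat1 lies at chrX:155213132-155216449 on the minus strand, Paox at chr7:140115799-140137224 and Smox at chr2:131491496-131525922, both on the plus strand. Paox shares 142 exon bases with Echs1, a mitochondrial enoyl-CoA hydratase gene on the opposite strand that was at 51.9 FPKM over all libraries. Without strand, reads of the shared bases cannot be told apart, which makes the low Paox level uncertain.

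By count, 0 of the 10 genes passed an adjusted p of 0.05 in the limma fit of all genes, where 5 of 12118 genes passed (0.0413%). At an unadjusted p under 0.05 there was 1 of the 10, Odc1, and 721 of 12118 over all genes (5.95%). By limma-voom on the recovered reads, 0 of the 10 passed as well. As deposited, 1 of the 10 had all KO values above all WT values, against 2.29% of all genes, and 0 had all KO values below, against 3.01%. The rule for the 10 genes used this comparison, so these counts say nothing of the genes beyond their values. The log2 difference was above 0 in 4 of the 10, with a median of -0.02, and in 47.2% of all genes, with a median of -0.01. Without KO replicate 2 it was above 0 in 3 of the 10, with a median of -0.09, and without KO replicate 1 in 7 of the 10, with a median of 0.04.

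**Figure D3:**
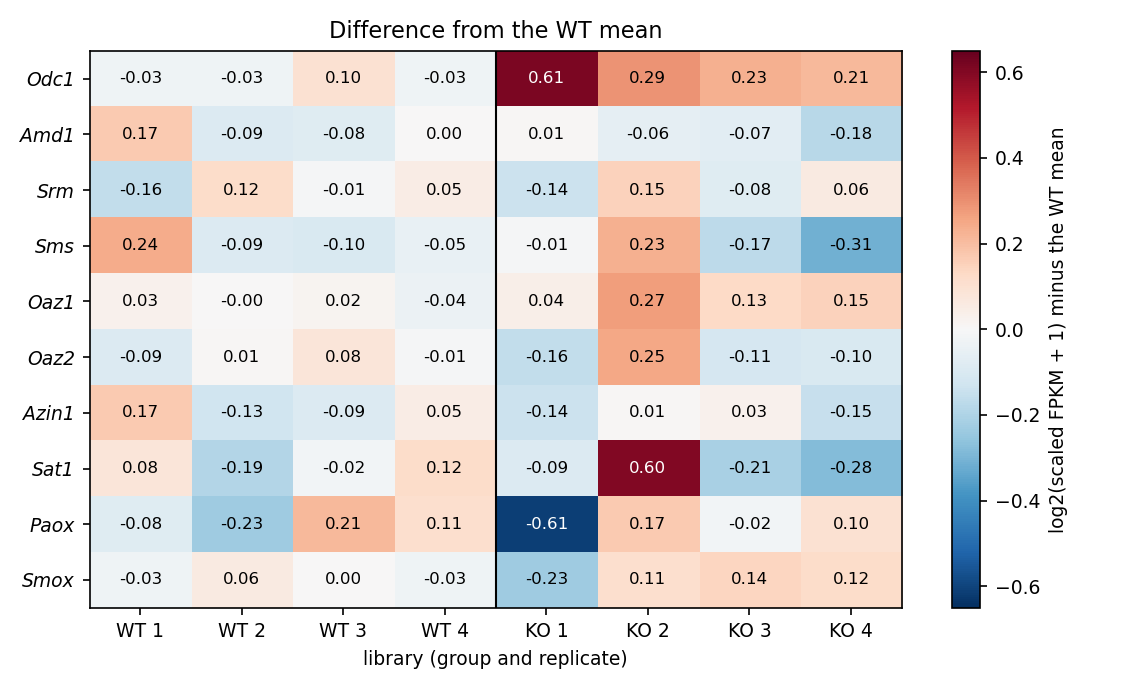
Each gene (rows) in each library (columns), as log2(scaled FPKM + 1) minus the WT mean of that gene; red is above and blue below the WT mean, and the number in each cell is the value. KO replicate 1 has the highest Odc1 value (0.61) and the lowest Paox value (-0.61), and KO replicate 2 the highest Sat1 value (0.60).

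Some mice held the extreme value in several genes. After scaling, KO replicate 2 was the highest of the 8 mice in Oaz1, Oaz2, Srm and Sat1, and the lowest in 0 of the 10 genes. KO replicate 4 was the lowest in Azin1, Amd1, Sms and Sat1. KO replicate 1 was the highest in Odc1 and the lowest in Oaz2, Paox and Smox. The CV among KO mice was 26.9% for Sat1, 23.9% for Paox and 15.7% for Odc1, and its median over all genes tested was 15.9% in KO against 8.89% in WT.

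Ratios of the genes within a mouse put the regulators of ornithine decarboxylase beside it. The sum of Oaz1 and Oaz2 over Odc1, in FPKM, was 1.07, 1.08, 1.01 and 1.05 in WT and 0.681, 1.03, 0.940 and 0.961 in KO. The antizyme sum was within 0.940 to 1.08 of Odc1 in every mouse but KO replicate 1, and the groups overlapped through KO replicate 2. The mean ratio was 1.05 ± 0.0331 in WT and 0.903 ± 0.153 in KO. At the longest coding transcript lengths it was 1.79 ± 0.0669 and 1.57 ± 0.259, so the absolute ratio depends on the length and the KO to WT ratio of 0.86 or 0.87 does not.

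Azin1 over Odc1 was 0.0841, 0.0679, 0.0636 and 0.0771 in WT and 0.0431, 0.0599, 0.0634 and 0.0564 in KO. The groups did not overlap, though KO replicate 3 and WT replicate 3 nearly met. The mean ratio in KO was 0.76 of that in WT, and between 0.73 and 0.82 whichever mouse was left out. Sat1 over Odc1 was 0.342 ± 0.0382 in WT and 0.281 ± 0.0964 in KO, with KO replicate 2 at 0.424 and the other 3 KO mice at 0.209 to 0.250, below all 4 WT mice at 0.304 to 0.380. Sms over Srm was 0.574 ± 0.125 in WT and 0.545 ± 0.0882 in KO, and Smox over Paox 0.861 ± 0.161 and 0.954 ± 0.159, both with overlap. The ratios over Odc1 carry the difference of Odc1 itself and are no separate result.

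Genes around the pathway were read from 7 lists with 51 genes tested. None of the 51 passed the adjusted threshold in limma or limma-voom, and 4 had an unadjusted p under 0.05 in limma (7.84%, against 5.95% of all genes). The log2 difference was above 0 in 29 of the 51, with a median of 0.02, beside -0.01 over all genes. As deposited, 3 of the 51 had all KO values below all WT values, against 3.01% of all genes. None had all KO values above, against 2.29%.

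Of 10 genes tested around ornithine and arginine, the substrates of Odc1 and arginase, 9 had a lower mean log2 value in KO. The median over the 10 was -0.11. This list mixes genes that make, move and use these substrates, so a count over it has no direction for supply. Slc7a9, a subunit of the transporter that takes up cystine and basic amino acids at the brush border, was at 74.8, 83.6, 78.8 and 76.1 FPKM in WT and 63.4, 60.5, 71.3 and 63.6 FPKM in KO. The groups did not overlap, and the log2 difference was -0.25 ± 0.09 (SE, limma adjusted p = 0.70). Its partner subunit Slc3a1 averaged 162 ± 8.56 FPKM over WT and 135 ± 33.2 over KO mice, of which KO replicate 2 alone was at 86.2 FPKM. The log2 difference of Slc3a1 was -0.27 ± 0.16 with that mouse and -0.10 ± 0.07 without it. Ass1, argininosuccinate synthase, was the most abundant gene of the list, with 2703 ± 44.7 FPKM in WT mice and 2497 ± 104 FPKM in KO mice, with no overlap as deposited (-0.09 ± 0.10, SE, limma adjusted p = 0.87). After scaling the groups overlapped, with WT replicate 1 at 2559 FPKM and KO replicate 4 at 2575 FPKM. Arg1 and Otc were below the filter.

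The supply of S-adenosylmethionine and the salvage of methylthioadenosine, the by-product of Srm and Sms, had 9 genes tested, 4 of them above 0, with a median of -0.01. Mat2a, which makes S-adenosylmethionine outside the liver, had 101, 82.1, 85.5 and 91.0 FPKM in WT mice and 59.5, 92.7, 83.5 and 72.3 FPKM in KO mice, with overlap. Enoph1, a salvage enzyme, was at 4.41 ± 0.282 and 3.83 ± 0.210 FPKM, with no overlap. Ahcy, S-adenosylhomocysteine hydrolase, had the highest level, at 165 ± 6.52 and 160 ± 9.04 FPKM. The log2 differences were -0.22 ± 0.15 for Mat2a (limma adjusted p = 0.86) and -0.15 ± 0.08 for Enoph1 (limma adjusted p = 0.86). KO replicate 2 held the highest KO value of Mat2a and KO replicate 1 the lowest. Without KO replicate 2, Mat2a was therefore further from 0, at -0.34 ± 0.11 (SE, limma adjusted p = 0.31). The list then had 2 of 9 genes above 0 with a median of -0.09. Without KO replicate 1, the list had 5 of 9 above 0 with a median of 0.02.

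Close relatives of the 10 genes had 3 members tested. Azin2, a second antizyme inhibitor, had 5.97 ± 0.591 FPKM in WT mice and 5.68 ± 1.08 in KO mice, Sat2 12.8 ± 0.506 and 12.7 ± 3.27 FPKM, and the diamine oxidase Aoc1 1.87 ± 0.245 and 1.90 ± 0.397 FPKM. The median log2 difference over these 3 was -0.03. It was -0.12 without KO replicate 2 and 0.06 without KO replicate 1. Sat2 was at 17.5 FPKM in KO replicate 2 and at 10.6 to 11.4 FPKM in the other 3 KO mice, below the WT range of 12.3 to 13.4 FPKM. Its log2 difference was -0.03 ± 0.16 with all mice and -0.21 ± 0.07 without KO replicate 2 (SE, limma adjusted p = 0.30). Oaz3, an antizyme of the testis, averaged 0.122 FPKM over WT and 0.121 over KO mice, below the filter, as was Amd2. Satl1 was listed at 0 in all 8 libraries.

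Spermidine is used to make the hypusine residue of eIF5A, and 3 genes of that step were tested. Eif5a averaged 314 ± 6.30 FPKM over WT and 336 ± 23.9 over KO mice. Dhps, which attaches the spermidine part, was at 11.2 ± 0.908 and 10.1 ± 0.489 FPKM. Dohh, which completes hypusine, was at 40.3, 42.1, 36.9 and 39.3 FPKM in WT and 41.4, 52.2, 47.5 and 49.0 FPKM in KO. KO replicate 1, the mouse with the highest Odc1 value, was the only KO mouse within the WT range. The log2 difference of Dohh was 0.27 ± 0.10 (SE, limma adjusted p = 0.75), and 0.20 ± 0.07 without KO replicate 2. The median of the list was 0.12, and 0.04 without that mouse.

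Polyamine transport had 9 genes tested, 6 of them above 0, with a median of 0.02. The count was 5 of 9 without KO replicate 2, and 4 of 9 without KO replicate 1, 3 or 4. The medians of those fits were -0.01 to 0.02. Atp13a2, a lysosomal polyamine exporter, averaged 11.8 ± 0.838 FPKM over WT and 12.9 ± 2.11 over KO mice. Atp13a2 had a log2 difference of 0.13 ± 0.10 (SE, limma adjusted p = 0.86). Without KO replicate 2, the lowest KO mouse at 9.90 FPKM, it was 0.21 ± 0.07 (limma adjusted p = 0.32).

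**Figure D4:**
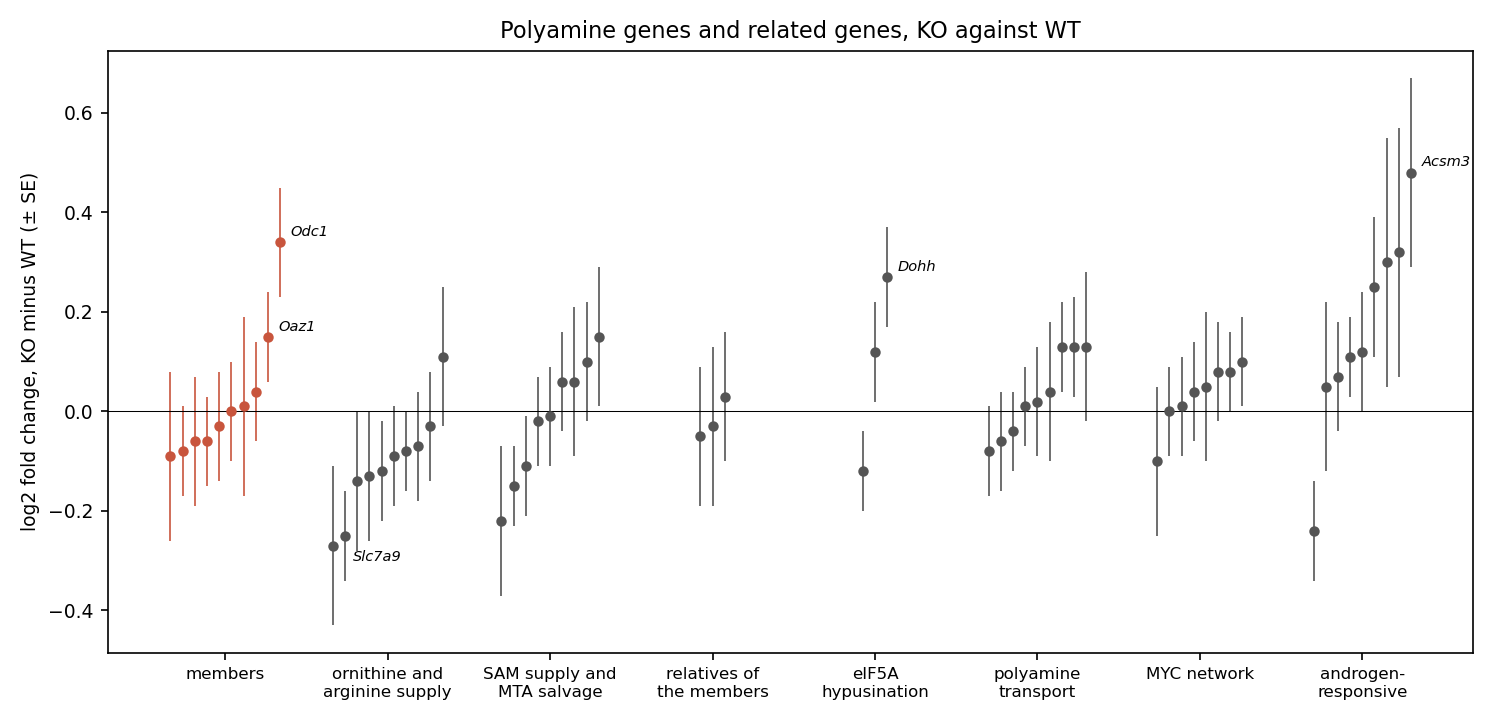
Log2 difference of KO minus WT with its SE (limma, n = 4 per group) for the 10 polyamine genes (red, labelled members) and the 51 tested genes of 7 related lists (grey), each list in order of size; SAM is S-adenosylmethionine and MTA methylthioadenosine. Odc1 (0.34) lies highest among the polyamine genes and Acsm3 (0.48) highest of all genes drawn, and none passed the adjusted threshold.

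Odc1 is a known target of MYC and of androgen, so both lists were set beside it. The MYC network list holds Myc together with its partners and its antagonists (Mxd1, Mxd4, Mxi1 and Mnt), so a count over it has no direction for MYC activity. Of its 8 genes tested, 7 were above 0, with a median of 0.05 and a range of -0.10 to 0.10, and 5 of 8 were above 0 without KO replicate 1 or without KO replicate 2. Myc itself had a log2 difference of 0.05 ± 0.15 (SE, limma adjusted p = 0.95), and was named after its value was seen. Mlx averaged 13.4 ± 0.527 FPKM over WT and 14.3 ± 0.945 over KO mice, Mxi1 14.0 (13.3 to 14.5) and 14.7 (14.0 to 15.8), and Mxd4, the most abundant, 36.6 ± 0.992 and 38.6 ± 5.80. Of 9 androgen-responsive kidney genes, 8 were above 0, with a median of 0.12. Without KO replicate 2 it was 7 of 9, with a median of 0.06.

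Acsm3, an acyl-CoA synthetase of this list, was at 17.3, 22.7, 23.0 and 14.7 FPKM in WT and 33.4, 24.0, 32.2 and 19.3 FPKM in KO. KO replicate 1 was the highest in Acsm3 as in Odc1, and KO replicate 4 lay within the WT range (0.48 ± 0.19, SE, limma adjusted p = 0.80). KO replicate 3 was close to KO replicate 1 in Acsm3 but not in Odc1, at 329 against 437 FPKM. Kap, the kidney androgen-regulated protein, averaged 11236 ± 1758 FPKM over WT and 14133 ± 5147 over KO mice. The Kap mean rested on KO replicate 2, at 21753 FPKM: the log2 difference was 0.30 ± 0.25 with that mouse and 0.05 ± 0.14 without it.

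Summed marker levels overlapped between the groups in all lists below but those of urothelium and of immediate early and heat shock genes. None of these sums was tested between the groups. The 7 urothelial markers, all above 0 in every library, summed to 3.98 to 10.2 FPKM in WT and 14.8 to 34.1 FPKM in KO, with 4 of 4 KO mice above WT. KO replicate 1, highest in Odc1, was also highest in these markers, at 34.1 FPKM. KO replicate 4 followed at 27.9 FPKM, and KO replicates 2 and 3 were at 15.2 and 14.8 FPKM. In Odc1, KO replicate 4 was not set apart from those mice, at 328 FPKM against 321 and 329 FPKM. The 10 immediate early and heat shock genes summed to 80.1 to 102 FPKM in WT and 137 to 286 FPKM in KO, again 4 of 4 above. The 5 markers of proximal tubule segment S3 overlapped, at 615 to 722 FPKM in WT and 639 to 695 FPKM in KO. The 9 tubular injury genes were at 395 to 455 FPKM in WT and 429 to 568 FPKM in KO, with 3 of 4 KO mice above WT. The 4 thick ascending limb markers were at 1266 to 1516 FPKM in WT and 960 to 1308 FPKM in KO, with 3 of 4 KO mice below WT. The 5 principal cell markers were at 249 to 355 FPKM in WT and 320 to 467 FPKM in KO, with 3 of 4 KO mice above WT, and 1 of them, Avpr2, was at 0 in at least 1 library. The part of any of these in the Odc1 value was not tested.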

How the data were processed

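RNA from 8 kidneys, 4 WT and 4 KO, each from a different mouse, was analysed from 1 table. The authors deposited FPKM values, as read from the table's steps, since its header names no unit. Per the submitters' processing notes, CASAVA, STAR 2.5 and HTSeq 0.6.1 were used with build mm10. For the annotation, strand setting and filters behind the values, the sources used here give nothing.

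With gene lengths fitted, all 22945 genes above 0 came out as whole reads within 0.002, 5865 of them at their annotated exon length. The reads recovered were 99.92% to 99.95% of the library totals. With shifted totals, 0 of 300 control genes did.

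FPKM were divided by trimmed mean of M values factors (0.94 to 1.05). All 12118 genes whose mean FPKM reached 1 were tested by limma 3.58.1 in R 4.3.3 on log2(scaled FPKM + 1), with trend and robust moderation and Benjamini-Hochberg adjustment over all of them at 0.05. This scale understates differences of low genes. The fit was tested on simulated reads with 200 genes changed 2-fold and a dispersion of 0.01 for every gene. It recovered 98.5% to 99.5% of those genes, with 10 to 18 false calls. Differences as small as that of Odc1, and a wider spread in KO than in WT, were not simulated. Alternatives were other scalings, filters and pseudocounts, limma-voom on the recovered reads, array weights and leaving out each mouse. Errors are SD over mice or SE of the fit. Counting errors cover counting only, as PCR copies cannot be told apart in the values used here.

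The 10 genes, the related lists and the markers were chosen with earlier results of these data known. Named from each list were the genes past the threshold, or the 2 with the lowest p, and the gene with the highest mean; a few genes under this rule are not reported here. Replicate numbers follow sample order and pair no mice. Positions and sequences are from GENCODE M21 (mm10), which holds 34490 of the 35275 genes (97.8%).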

Additional observations from a re-analysis of the deposited data

Results flagged for a closer look

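In groups of 4 mice, the gap between the highest or lowest mouse and its nearest neighbour was divided by the range of the group. FPKM were taken as deposited, before scaling. The ratio was above the 95% critical value of Dixon's test in 9 of the 70 groups checked, where chance gives about 1 in 20. The groups share mice and some share a gene, so the 9 were not tested against that rate. Odc1 in KO had a ratio of 0.927, with KO replicate 1 at 437 FPKM and the others at 321 to 329. Oaz2 in KO had 0.847, with KO replicate 2 at 93.9 FPKM and the others at 76.7 to 79.3. Sms in WT had 0.873, with WT replicate 1 at 14.3 FPKM and the others at 10.4 to 10.9. The ratio of Sms over Srm in WT had 0.832, with WT replicate 1 at 0.759 and the others at 0.483 to 0.530.

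Among the related genes, Slc3a1 in KO had a ratio of 0.836, with KO replicate 2 at 86.2 FPKM and the others at 145 to 156. Enoph1 in KO had 0.936, with KO replicate 2 at 3.51 FPKM and the others at 3.92 to 3.95, a gap that is small in size. Azin2 in KO had 0.923, with KO replicate 1 at 4.07 FPKM and the others at 6.14 to 6.31. Sat2 in KO had 0.882, with KO replicate 2 at 17.5 FPKM and the others at 10.6 to 11.4. Kap in KO had 0.844, with KO replicate 2 at 21753 FPKM and the others at 10419 to 12191. KO replicate 2 was the mouse set apart in 5 of the 9 groups.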

How the results depend on the processing

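The log2 difference of Odc1 was above 0 in all 16 alternatives fitted (0.24 to 0.38), and so was that of Oaz1 (0.11 to 0.18). Zero lay within the range of Sat1 (-0.19 to 0.10), Paox (-0.18 to 0.08), Sms (-0.17 to 0.02), Oaz2 (-0.13 to 0.01) and Srm (-0.09 to 0.04). Smox ran from 0.00 to 0.12, Azin1 from -0.10 to -0.00 and Amd1 from -0.10 to -0.02. None of the 10 genes, nor of the related genes, passed the threshold in any alternative, and 0 of the 10 did at an adjusted p under 0.1. The count of all genes passing was 5. It was 3 with a mean FPKM of at least 5, 59 with array weights, which gave KO replicate 2 a weight of 0.10, and 3 to 21 when a mouse was left out, 21 without KO replicate 2 and 21 without KO replicate 3. The CV over WT mice of scaled FPKM, and levels and ratios at coding transcript lengths, were alternatives chosen after seeing the data. No paired analysis was possible because the labels call the WT mice littermates without giving the litters, and tie no KO mouse to a WT mouse.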
